A study of Mus musculus with 23 samples.

Results

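The proteasome subunits described here are the 35 genes whose symbols run Psma, Psmb, Psmc or Psmd followed by a number, leaving out the inducible catalytic subunits Psmb8, Psmb9, Psmb10 and Psmb11. They were taken by symbol alone from the 38924 genes of the deposited counts. By role they are 7 subunits of the alpha ring, 1 alpha subunit known from testis (Psma8), 4 non-catalytic and 3 catalytic subunits of the beta ring, 6 ATPases and 3 other subunits of the regulatory base, 8 subunits of the lid, and 3 chaperones that help to assemble the base. All 35 had 10 or more summed counts in the libraries at 7 months, and 34 had them at 4 and 24 months, the exception being Psma8. The 34 other members passed the filter on low counts and were tested in every comparison.

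Messenger RNA was sequenced from quadriceps muscle of 23 mice on a C57BL/6 background, all fed chow and given occasional glucose and exercise tolerance tests. WT mice were sampled at 4, 7 and 24 months (WT_4m, WT_7m and WT_24m, 4 libraries each), and mice lacking Nampt in skeletal muscle, named mNKO, at 7 months (mNKO_7m, 4 libraries). Mice overexpressing Nampt, whose name MCK-NamptOE carries the abbreviation of the muscle creatine kinase promoter, gave 3 libraries at 4 months (OE_4m) and 4 at 24 months (OE_24m). The Nampt enzyme sets the pace at which NAD is remade from nicotinamide. The labels give neither the sex of the mice nor the driver of the deletion, and each library carries the name of its own animal.

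The proteasome is the protease that degrades proteins marked with ubiquitin. Its core particle is a barrel of 2 outer alpha rings, which gate the entrance, and 2 inner beta rings, of which Psmb5, Psmb6 and Psmb7 carry the chymotrypsin-like, caspase-like and trypsin-like active sites. A regulatory particle sits on the end of the barrel: its base holds a ring of ATPases that unfold the substrate, and its lid removes ubiquitin. In immune cells and under interferon, Psmb8, Psmb9 and Psmb10 replace Psmb5, Psmb6 and Psmb7 in newly made particles. In skeletal muscle the proteasome is known for breaking down myofibrillar proteins during atrophy, after muscle ubiquitin ligases such as Fbxo32 and Trim63 have marked them.

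Transcription factors Nfe2l1 and Nfe2l2 are known to raise subunit transcription through antioxidant response elements. Of the 35 members, 28 had promoter sequence in the RefSeq table of the GRCm38.p6 assembly, taken from 250 bases before to 50 bases after the start. Psma8, Psmb1, Psmb2, Psmb7, Psmc3, Psmd3 and Psmd7 did not. The letters TGACNNNGC, searched on both strands, lay in the windows of 5 of the 28 genes (17.9%) and of 13.99% of all 27025 genes in the table. These 5 stretches are shown because Psmb5 and Psmc6 were among the subunits that passed the test below, Psmb6 is the catalytic partner of Psmb5, and Psmd9 and Psmd12 complete the set. Capitals mark the matching letters or, for Psmc6 and Psmd12, their reverse complement, and each stretch reads 5′ to 3′ along its gene.
Psmb5: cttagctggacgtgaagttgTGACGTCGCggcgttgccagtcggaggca
Psmb6: cagaggcggactaaagagagTGACGGAGC
Psmc6: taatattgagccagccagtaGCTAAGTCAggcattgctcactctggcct
Psmd12: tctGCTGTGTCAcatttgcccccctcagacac
Psmd9: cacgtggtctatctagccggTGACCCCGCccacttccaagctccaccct
They lie at chr14:54618014-54618062 (minus strand), chr11:70525328-70525356, chr14:45329577-45329625, chr11:107479278-107479309 and chr5:123228139-123228187 (plus strand for these 4). The match begins 47 bases upstream of the RefSeq start in Psmb5, 9 in Psmb6, 227 in Psmc6, 247 in Psmd12 and 31 in Psmd9. These starts differ from the ends of the GENCODE gene positions used below. The Psmd9 stretch lies inside its GENCODE gene (chr5:123169413-123250131), and part of the Psmb5 stretch inside its own (chr14:54614119-54618022). A related form, TGAGNNNGC, which has G in place of the C of the first, was in 11 of 28 members (39.3%) and 19.8% of all genes. CCAAT was in 11 of 28 members (39.3%) and 41.1% of all genes, and TATAAA in 3 of 28 (10.7%) and 15.7%. These are matches of letters and say nothing of what binds there.

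The libraries held 14900674 to 22755930 counts on genes at 7 months and 2032544 to 3443762 at 4 and 24 months, so levels in the second set were measured less precisely. Levels are CPM (counts scaled to library size) after TMM, and all folds and adjusted p-values are from edgeR's quasi-likelihood test, adjusted over all genes tested and called below 0.05. Members took 0.300 to 0.451% of the counts at 7 months and 0.306 to 0.412% at 4 and 24 months. Nampt matched the labels, at 102 to 127 CPM in WT_7m and 12.5 to 23.3 in mNKO_7m, 203 to 253 in WT_4m and 4441 to 5705 in OE_4m, and 189 to 219 in WT_24m and 4107 to 9533 in OE_24m. The markers of mature skeletal muscle, the labelled tissue, summed to 177544 to 209666 CPM in WT_7m. RNA of the 7-month set was extracted in another way than that of the other ages, so levels are set side by side across the sets but not tested.

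Per kilobase of principal transcript, the most abundant subunit transcripts in WT_7m were the catalytic Psmb6, at 249 ± 36.0 CPM per kb (SD, n = 4), and Psmb7, at 214 ± 28.8, followed by the lid subunit Psmd8 at 203 ± 48.9 and the ATPase Psmc3 at 142 ± 11.3. The ranges of the first 3 overlap within their spread. The third catalytic subunit, Psmb5, stood at 69.7 ± 10.7 CPM per kb, 16th in the order. Counts are per gene, so the order may depend on the length used. The principal transcripts of Psmb7, Psmb6 and Psmb5 have 1160, 798 and 899 bases. All annotated exons of these genes together span 3421, 1872 and 899. Reads not aligned uniquely were left out, so members that share sequence with other genes may be understated here. Of 50-base windows, 57.1% for Psmb5, 55.8% for Psmb3 and 55.4% for Psma5 also occur in other annotated genes. The share was 28.1% for Psmb7, 2.67% for Psmb6 and 0 for Psmd8. The 31 subunits of the assembled particle spanned 9.75-fold, down to the alpha subunit Psma2 at 25.5 CPM per kb. The base chaperones, which leave the finished particle, lay below on the same scale, with Psmd9 at 7.78, Psmd10 at 6.21 and Psmd5 at 3.29. The order of 34 members by level had a Spearman rho of 0.965 between WT_7m and mNKO_7m, across genes, which are not replicates. It was 0.977 between WT_4m and OE_4m, 0.990 between WT_4m and WT_24m and between WT_24m and OE_24m, and 0.8286 between WT_4m and WT_7m, which were extracted differently. In the 4 groups at 4 and 24 months Psmd8 was first, at 197 to 206.6 CPM per kb, and the lid subunit Psmd11 was 6th in WT_4m but 26th in WT_7m.

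Psma8, which replaces Psma7 in testis, was close to undetected in muscle. It had 0 counts in the 15 libraries at 4 and 24 months, 1 count in WT_7m and 19 in mNKO_7m, spread over 3 of the 4 mNKO libraries. The ratio of mNKO to WT totals was 15.3, with a 95% counting interval of 2.44 to 638 that covers counting error only. Reads were pooled over libraries for it, so the spread between animals is left out. Psma8 met the minimum of summed counts given above only through its mNKO reads. The ratio therefore cannot decide whether the genotypes differ. With so few reads Psma8 was filtered out of the test.

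Setting mNKO muscle against WT muscle of the same age, 7 months, addresses how these transcripts stand when Nampt is lost. With TMM scaling, 7 of 34 members fell (24.5% of all genes were called lower) and 1 rose (28.6% were called higher), and 26 did not pass. Both shares of members, 20.6% and 2.94%, were below those of all genes in this comparison, where 53.1% of genes passed in either direction. Those that fell were Psmd1, Psmd6, Psmb7, Psmc6, Psmd3, Psma6 and Psmd7, and Psmb5 rose. All 7 falls depended on the scaling: with total counts and no further scaling, all 34 members had a positive log2 fold change, 17 passed as higher (51.6% of all genes did) and 0 as lower (7.05%). TMM moved the median of all genes to 0.014 from 0.54, and the median of members lay 0.187 below it with TMM and 0.196 below it with total counts. Being bulk tissue, these data cannot tell fewer cells of a type from less RNA per cell.

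Psmd1, the largest subunit of the base and its scaffold (chr1:86064387-86139151, plus strand, GRCm38), stood at 136, 131, 130 and 125 CPM in the 4 WT libraries and at 90.1, 98.9, 93.9 and 93.5 in the 4 mNKO libraries. The groups did not overlap, and both were tight. Its level fell from 130.6 ± 4.56 to 94.1 ± 3.61 CPM, a log2 fold change of -0.47 (SE 0.10, adjusted p = 0.00245). Another 2 subunits of the base, Psmd2 and the ubiquitin receptor Psmd4, had values of -0.20 and -0.30 and did not pass (adjusted p = 0.222 and 0.148). Of the 6 ATPases, Psmc6 fell (chr14:45329788-45349705, plus strand), with 102, 100, 112 and 140 CPM in WT and 87.5, 90.3, 85.1 and 62.3 in mNKO. Every mNKO library was below every WT library, by a narrow gap that WT_7m replicate 2 and mNKO_7m replicate 2 set. The change was -0.49 (SE 0.16, adjusted p = 0.0211), and without WT_7m replicate 4, its highest library, it was -0.37 (adjusted p = 0.0600). The ATPase Psmc2 missed the threshold at -0.37 (adjusted p = 0.0525), and Psmc1, Psmc3, Psmc4 and Psmc5 lay between -0.22 and 0.03.

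Of the 8 lid members 3 fell with TMM (37.5%, beside 24.5% of all genes) and 0 with total counts, and their median log2 fold change with TMM was -0.30. Psmd6 (chr14:14112174-14120984, minus strand) stood at 71.4, 92.0, 92.2 and 101 CPM in WT and at 65.9, 68.9, 63.0 and 59.6 in mNKO. Here WT_7m replicate 1 lay near the mNKO libraries, and the groups still did not overlap. It fell by 0.47 on the log2 scale (SE 0.13, adjusted p = 0.00874). Psmd3 (chr11:98682554-98695979, plus strand) stood at 111, 89.96, 99.8 and 126 CPM in WT and 86.8, 83.1, 82.6 and 77.6 in mNKO. It was apart too, by little, and fell by 0.37 (SE 0.13, adjusted p = 0.0274). Psmd7, which pairs with the deubiquitinase Psmd14 (Psmd7 at chr8:107580381-107588464, minus strand), stood at 173, 231, 212 and 263 CPM in WT and 152, 181, 157 and 173 in mNKO. Its lowest WT library overlapped the mNKO range, and it fell by 0.41 (SE 0.15, adjusted p = 0.0351). Psmd11 missed the threshold (-0.23, SE 0.11, adjusted p = 0.0939) although its 4 WT libraries, at 119 to 140 CPM, all lay above its mNKO libraries, at 101 to 111. Psmd14 stood at -0.25, Psmd12 at -0.32 and Psmd8 at -0.28, none past the test. Psmd13 was the 1 lid member with a positive value, 0.21 (adjusted p = 0.252).

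The core particle was split. In the alpha ring, Psma6 (chr12:55384222-55418454, plus strand) stood at 91.3, 112, 116 and 129 CPM in WT and 75.7, 95.4, 84.6 and 88.7 in mNKO. The groups overlapped through WT_7m replicate 1, and Psma6 fell by 0.38 (SE 0.13, adjusted p = 0.0317). The other 6 alpha subunits did not pass, with Psma1 and Psma3 at -0.33 and -0.38 (adjusted p = 0.0863 and 0.0822), Psma2, Psma4 and Psma7 between -0.14 and -0.11, and Psma5 at 0.16. The non-catalytic beta subunits Psmb1 to Psmb4 lay between -0.05 and 0.14 and none passed.

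The 3 catalytic subunits, which are present in equal numbers in the core, had values on both sides of 0. Psmb5 (chr14:54614119-54618022, minus strand) stood at 52.9, 75.6, 58.8 and 63.3 CPM in WT and at 86.0, 102, 72.9 and 119 in mNKO. Of the 4 mNKO libraries 3 lay above every WT library, and mNKO_7m replicate 3 lay within the WT range. Psmb5 rose from 62.7 ± 9.63 to 95.03 ± 19.98 CPM, by 0.60 on the log2 scale (SE 0.17, adjusted p = 0.0106), and with total counts it rose by 1.12 (adjusted p = 8.48e-05). Psmb7 (chr2:38588036-38644087, minus strand) stood at 198, 263, 264 and 267 CPM in WT and at 158, 196, 157 and 189 in mNKO. WT_7m replicate 1 lay just above the highest mNKO library, so the groups did not overlap. It fell from 247.9 ± 33.4 to 174.9 ± 20.5 CPM with TMM (-0.50, SE 0.14, adjusted p = 0.0117), and stood at 0.02 with total counts. Psmb6 (chr11:70525367-70527858, plus strand) stood at 167, 234, 186 and 207 CPM in WT and 183, 201, 153 and 234 in mNKO, with full overlap (-0.04, SE 0.16, adjusted p = 0.84). Of the 50-base windows of the Psmb5 transcript, 57.1% also occur in other annotated genes (the processed pseudogene Psmb5-ps, Gm3375 and Mir686). For Psmb7 the share was 28.1%, all shared with Nek6. Reads not aligned uniquely stood on a line of their own, 17.6 to 30.3% of the file totals at 7 months, outside the gene counts. How other reads of shared sequence were counted is not given in the sources used here. The levels of Psmb5 and Psmb7 are thus less certain than those of Psma6, Psmd6, Psmd3 and Psmd7, whose share was 0.

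**Figure D1:**
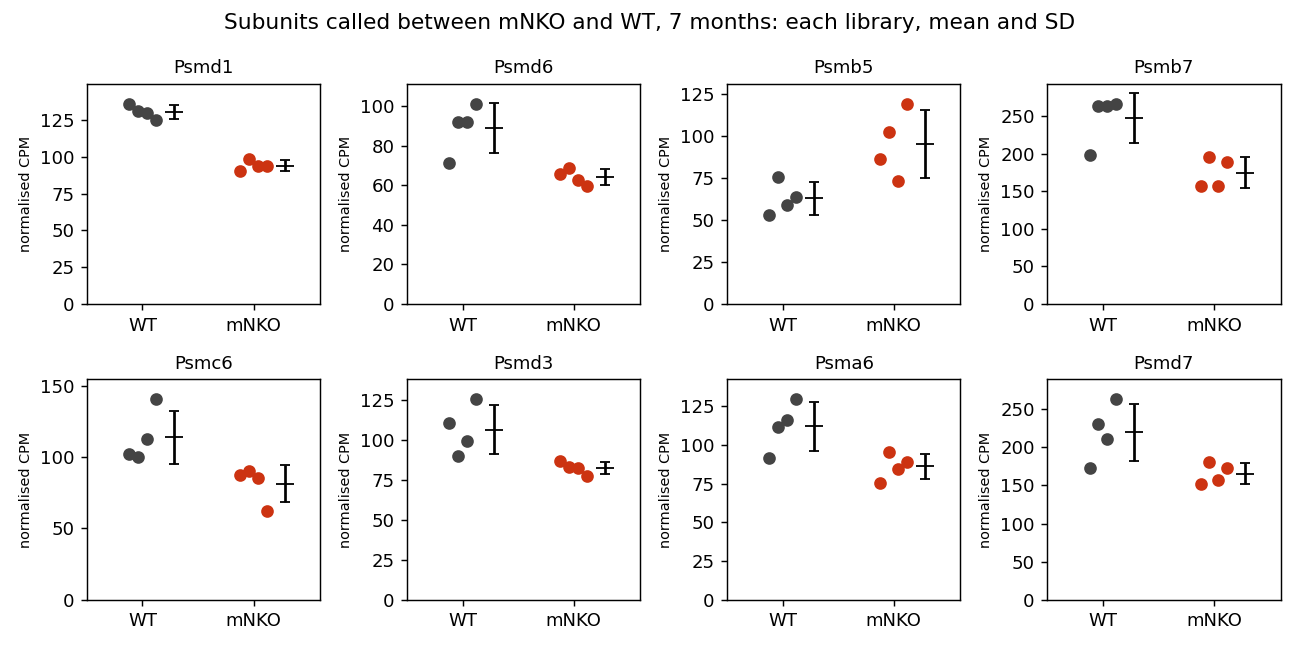
Normalised CPM (vertical axis, from 0) of the 8 subunits that passed the test between mNKO and WT at 7 months, 1 panel each, with a dot per library and the mean ± SD beside it (4 libraries a group). Psmb5 is higher in mNKO, the other 7 lower, and the groups overlap for Psmb5, Psma6 and Psmd7. With total-count scaling the 7 lower ones have log2 fold changes from 0.02 to 0.14.

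The assembly chaperones of the base had positive values where most subunits of the base had negative ones, with 0.29 for Psmd5, 0.23 for Psmd10 and 0.05 for Psmd9. None of the 3 passed (adjusted p from 0.122 to 0.725). Over all 34 members, 24 had negative and 10 positive log2 fold changes, with a median of -0.17 and a range of -0.50 to 0.60 (6475 of 13140 genes were negative). The groups did not overlap for 6 members that were lower (23.1% of all genes) and for 0 that were higher (27% of all genes). With total counts, 15 members were higher without overlap (47.7% of all genes) and 0 lower (6.46%).

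**Figure D2:**
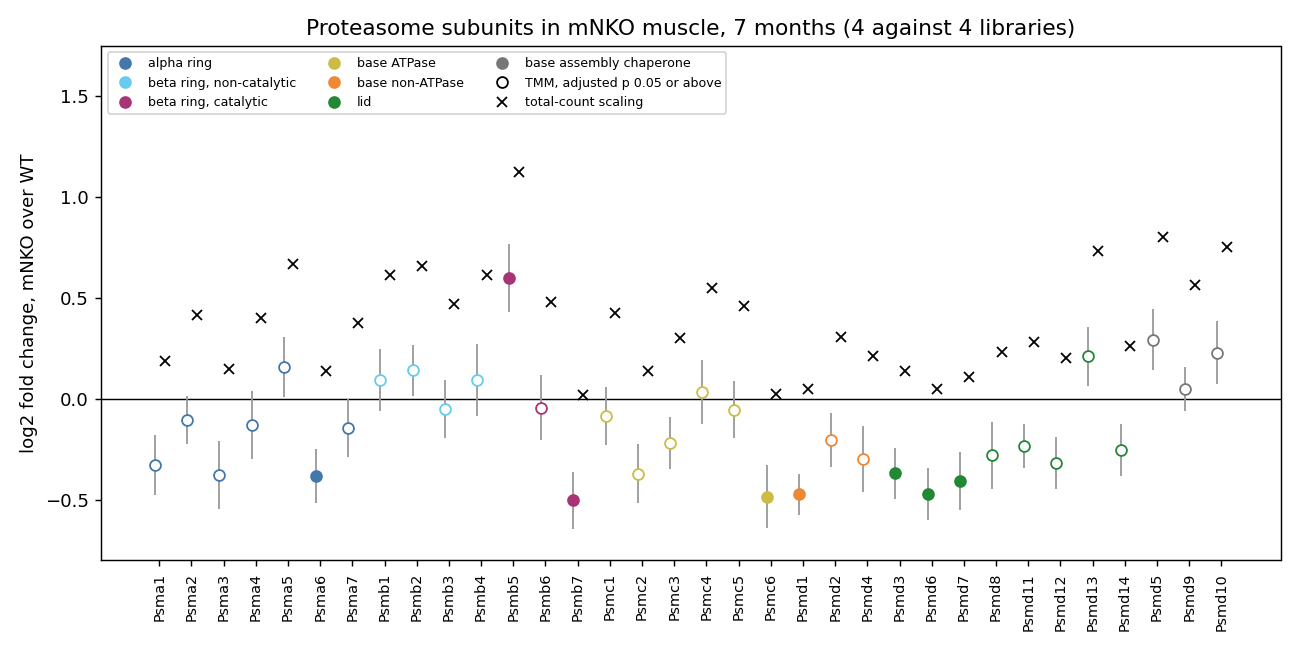
Log2 fold change of mNKO over WT (vertical axis) for each of the 34 tested subunits at 7 months, coloured by role, with circles and SE bars for TMM scaling (filled where called) and crosses for total-count scaling. With TMM, values run from -0.50 to 0.60 and 24 are below 0. With total counts all 34 crosses are above 0, and Psmb5 is highest in both.

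Libraries within groups differed in the level of the whole set. WT_7m replicate 4 was the highest of its group for 27 of 34 members and WT_7m replicate 1 the lowest for 27 of 34. With TMM, members summed to 3349 to 4591 CPM in the WT libraries (mean 3978 ± 518) and 3176 to 3774 in the mNKO libraries (3459 ± 322), with overlap. As a share of unscaled counts, members took 0.300 to 0.419% in the WT libraries and 0.386 to 0.451% in the mNKO libraries. Without WT_7m replicate 4, 3 members passed as lower and 1 as higher (3055 and 3788 of 13448 genes). Without mNKO_7m replicate 3, 4 members passed as lower and 1 as higher (3067 and 3685 of 13259 genes). Without WT_7m replicate 1, 10 members passed as lower and 1 as higher (2962 and 3804 of 13379 genes). With total counts and all libraries, 0 members passed as lower. With TMM, Psmd1, Psmd6, Psmb5 and Psmb7 kept their calls whichever of the 8 libraries was left out. Psma6, Psmd3 and Psmd7 each lost theirs in 5 of the 8 fits, without any of WT_7m replicates 2, 3 and 4 or mNKO_7m replicates 1 and 3 for Psma6 and Psmd7 (adjusted p from 0.0514 to 0.0970), and without WT_7m replicates 1 and 4 or mNKO_7m replicates 2, 3 and 4 for Psmd3 (adjusted p from 0.0504 to 0.0809). In the authors' deposited table of this comparison, 1 member was higher and 10 were lower, with a median log2 fold change of -0.16. The calls over all genes of that table were not counted.

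A share within the subunit pool does not depend on how libraries are scaled. Psmb5 made up 1.38 to 1.84% of all member counts in the WT libraries and 2.30 to 3.15% in the mNKO libraries, a ratio of mean shares of 1.73. Its share was the one that moved most, and Psmd5 (1.41), Psmd10 (1.35), Psmd13 (1.32), Psma5 (1.29), Psmb2 (1.26), Psmb1 (1.23) and Psmc4 (1.17) also took a higher share in every mNKO than in every WT library. Psmb7 (0.81), Psmd6 (0.84), Psmd7 (0.87) and Psma6 (0.88) took a lower share without overlap, and the other 22 overlapped. These shares were not tested, and no like count over all genes stands beside them. Shares of 1 pool are tied, so a rise in some lowers others. They show unequal change among subunits, not which of them changed.

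The inducible catalytic subunits moved in 1 direction under both scalings. Psmb8 stood at 5.66, 3.799, 3.34 and 4.08 CPM in WT and at 14.7, 16.05, 11.1 and 22.0 in mNKO (1.92, SE 0.23, adjusted p = 6.67e-05). Psmb9 stood at 2.17, 2.28, 1.64 and 1.98 CPM in WT and 5.32, 6.60, 6.16 and 10.2 in mNKO (1.80, SE 0.24, adjusted p = 0.000118). Psmb10 stood at 6.86, 9.64, 7.12 and 7.68 CPM in WT and 14.9, 15.7, 15.9 and 22.98 in mNKO (1.15, SE 0.18, adjusted p = 0.000282). All 3 rose with every mNKO library above every WT library. Within a library, Psmb8 had 6.70 reads per 100 of Psmb5 in WT (5.06 to 10.7) and 16.6 in mNKO (15.3 to 18.5). Psmb9 had 1.03 per 100 of Psmb6 in WT (0.897 to 1.31) and 3.60 in mNKO (2.91 to 4.36), and Psmb10 had 3.16 per 100 of Psmb7 (2.71 to 3.67) and 9.84 (8.03 to 12.2). Each ratio was thus higher in mNKO without overlap, by 2.48-, 3.50- and 3.11-fold. The exact two-sided permutation p was 0.0286 for each, the smallest that 4 against 4 libraries can give, and 0.143 after adjustment over 15 such tests. In the other 4 comparisons the exact permutation p ran from 0.0857 to 0.971 before adjustment. Even in mNKO the inducible subunits stayed below their partners per kilobase, at 5.22 to 13.3 CPM per kb.

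**Figure D3:**
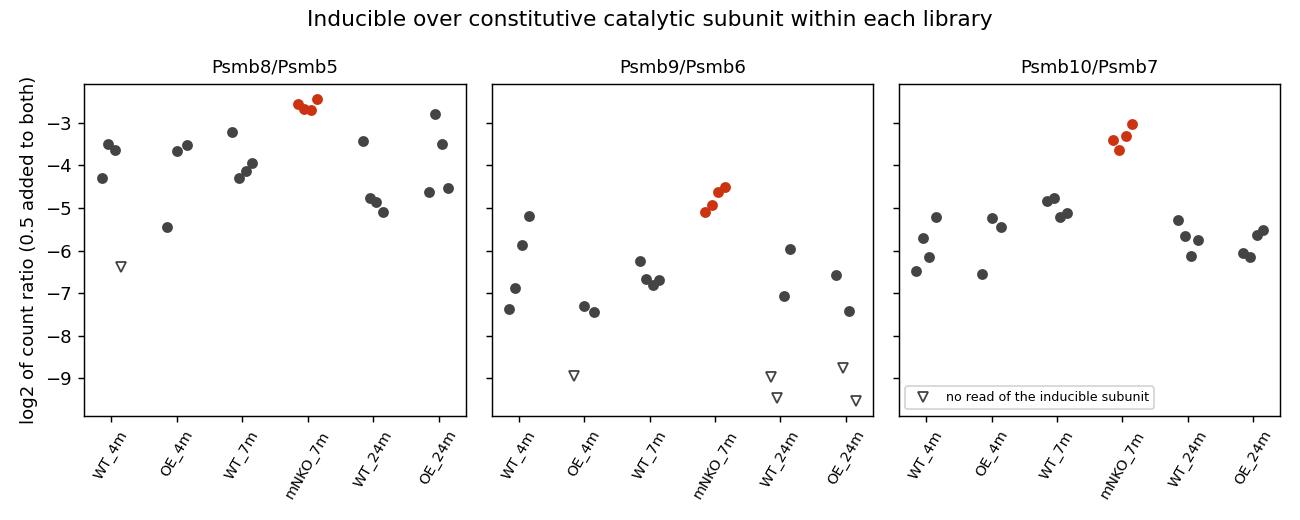
Log2 ratio of reads of each inducible catalytic subunit to its constitutive partner within a library (vertical axis, 0.5 added to both counts) in the 6 groups (horizontal axis), a point per library, open triangles where the inducible subunit had no read. The 4 mNKO_7m points lie above all WT_7m points in each panel, and the libraries at 4 and 24 months scatter widely and hold few such reads.

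Markers of other cells moved with this comparison, and their part in the results above was not tested. All 9 macrophage and monocyte markers rose (summed level 122 to 367 CPM in WT_7m, 1201 to 2902 in mNKO_7m), as did all 6 fibroblast markers (840 to 1105 and 3099 to 5075) and, with TMM, 5 of 6 markers of satellite cells and regenerating fibres (39.4 to 49.3 and 346 to 641; 6 with total counts). Of 8 markers of mature muscle 6 fell with TMM (177544 to 209666 and 78388 to 121154 CPM), and with total counts 5 fell and 1 rose. T cell markers had 2 tested, both higher, with Cd3g and Cd8a at 0 in WT_7m, and B cell markers 1 tested, higher, with Ms4a1 at 0 in mNKO_7m. None of 4 endothelial or 4 adipocyte markers passed with TMM, and 1 endothelial marker was higher with total counts. All 7 interferon signalling genes rose under both scalings (281 to 394 and 795 to 1091 CPM). Mitochondrially encoded genes took 13.8 to 19.6% of counts in WT_7m and 7.74 to 13.6% in mNKO_7m.

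Around the particle, the alternative caps split. Psme4 (PA200, a cap of the core found in nuclei) fell from 300.0 ± 29.3 to 139.5 ± 14.6 CPM (-1.10, SE 0.13, adjusted p = 6.06e-05), and it fell with total counts as well. Psme2, a subunit of the interferon-induced PA28 cap, rose from 18.8 ± 5.04 to 29.8 ± 5.59 CPM (0.67, SE 0.20, adjusted p = 0.0156). The other 3 of the 5, Psme1, Psme3 and Psmf1, did not pass with TMM, and 4 of 5 were higher with total counts. None of 5 chaperones of core assembly passed with TMM; the most expressed, Pomp, stood at 91.2 ± 23.1 CPM in WT and 101.3 ± 23.5 in mNKO, and 4 of 5 were higher with total counts.

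Proteins that bring substrates to the particle or sit on it held 8 falls (24.5% of all genes fell) and no rise (28.6% rose) among 14 tested genes with TMM, at a median of -0.41. The 6 with the smallest p were Zfand5 (-1.06), which stimulates the particle during atrophy, the shuttles Ubqln4 (-0.75), Rad23b (-0.73) and Ubqln2 (-0.62), the adaptor AI314180 (-0.81) and the ligase Ube3c (-0.70), with adjusted p from 0.000244 to 0.00880. With total counts the median was 0.11, Zfand5 alone fell (-0.53) and 1 gene rose. Zfand5 stood at 229.0 ± 15.9 CPM in WT and 110.1 ± 22.2 in mNKO.

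Of 15 regulators of subunit transcription, 5 rose and 4 fell with TMM (28.6% and 24.5% of all genes), and 9 rose and 1 fell with total counts (51.6% and 7.05%). Nfe2l1, the main activator of subunit genes when the proteasome is impaired, did not pass (540.1 ± 69.9 and 426.5 ± 61.6 CPM, -0.34, SE 0.15, adjusted p = 0.0835). It is named for this role, after its value was seen. Among the 6 with the smallest p, the enzymes that act on Nfe2l1 were split, with Ngly1 (-0.81) falling under TMM and Syvn1 (0.71) rising. Its relative Nfe2l2 (0.70) and the cytokine-activated factor Stat3 (1.31) rose, while Maf (-0.89) and Foxo4 (-1.06) fell with TMM. Foxo4 also fell with total counts (-0.54), the 1 gene of the list to do so. Adjusted p for these 6 ran from 7.90e-05 to 0.00627.

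Of the muscle ubiquitin ligases, which mark substrates for the particle, 13 fell and 1 rose among 22 with TMM (24.5% and 28.6% of all genes; median -0.46), and 3 fell and 3 rose with total counts (7.05% and 51.6% of all genes; median 0.05). Fbxo32 (atrogin-1) stood at 540, 468, 624 and 1014 CPM in WT and at 131, 223, 188 and 127 in mNKO (-1.98, SE 0.27, adjusted p = 0.000171). Asb2 fell from 873.5 ± 82.2 to 191.3 ± 30.5 CPM (-2.19, SE 0.16, adjusted p = 4.62e-06). With Fbxo40 (-1.04), these 2 made up the 3 falls under total counts, at -1.49, -1.68 and -0.52. Mdm2 (-0.77) and Ubr1 (-1.03) fell with TMM, and Fbxl22 rose from 2.57 ± 0.577 to 12.2 ± 2.93 CPM (2.24). Trim63 (MuRF1), the other classical atrophy ligase and likewise named after its value was seen, did not pass (-0.31, SE 0.35, adjusted p = 0.482).

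In muscle overexpressing Nampt at 4 months, 0 of 34 members passed edgeR's test (0.0109% of all genes did), the smallest adjusted p being 0.959. At an unadjusted p below 0.05 there were 5, and DESeq2 also called 0. All genes were not counted at the unadjusted threshold, so such counts, here and below, cannot be set against a background. The values leaned up: 29 of 34 were positive (4439 of 9144 genes were), with a median of 0.17 beside -0.008 for all genes, and with total counts 32 were positive with a median of 0.22. For 7 members, Psma1, Psma3, Psmb3, Psmb4, Psmc6, Psmd5 and Psmd12, every OE_4m library lay above every WT_4m library (2.7% of all genes), and for 0 the reverse held (2.59%).

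The highest value was that of Psmb4, a non-catalytic beta subunit, with 30.7, 29.9, 30.3 and 22.8 CPM in WT_4m and 37.3, 38.9 and 42.9 in OE_4m (0.47, SE 0.18). Psmc6, which fell in mNKO with TMM, stood at 168, 180, 157 and 159 CPM in WT_4m and 204, 204 and 197 in OE_4m (0.28, SE 0.11). For both, the groups lay apart, and neither passed. The lowest value was that of the ATPase Psmc1 (-0.23, SE 0.19). The catalytic subunits stood at 0.29 (Psmb5, SE 0.23), 0.38 (Psmb6, SE 0.17) and 0.16 (Psmb7, SE 0.13). In the authors' deposited table none was called either, and the median was 0.17. Leaving out any 1 of the 7 libraries gave medians from 0.13 to 0.23.

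At 24 months, 0 of 34 members passed between overexpressing and WT muscle with edgeR (0.0109% of all genes did; smallest adjusted p = 0.632), 2 had an unadjusted p below 0.05, and DESeq2 called 0. Again 29 of 34 were positive, with a median of 0.14 beside 0.002 for all genes. This lean rested on 1 library. Without OE_24m replicate 4 the median was 0.01 and 19 members were positive, and with total counts the median was 0.04 and 24 were positive. Set against the mean of WT_24m, the medians of members were 0.03, -0.04, 0.05 and 0.41 in OE_24m replicates 1 to 4, while the OE_4m libraries stood at 0.12, 0.11 and 0.26 against WT_4m. Single WT_4m libraries ran from -0.13 to 0.13 on that scale, so OE_4m replicates 1 and 2 lay within the spread of WT libraries.

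**Figure D4:**
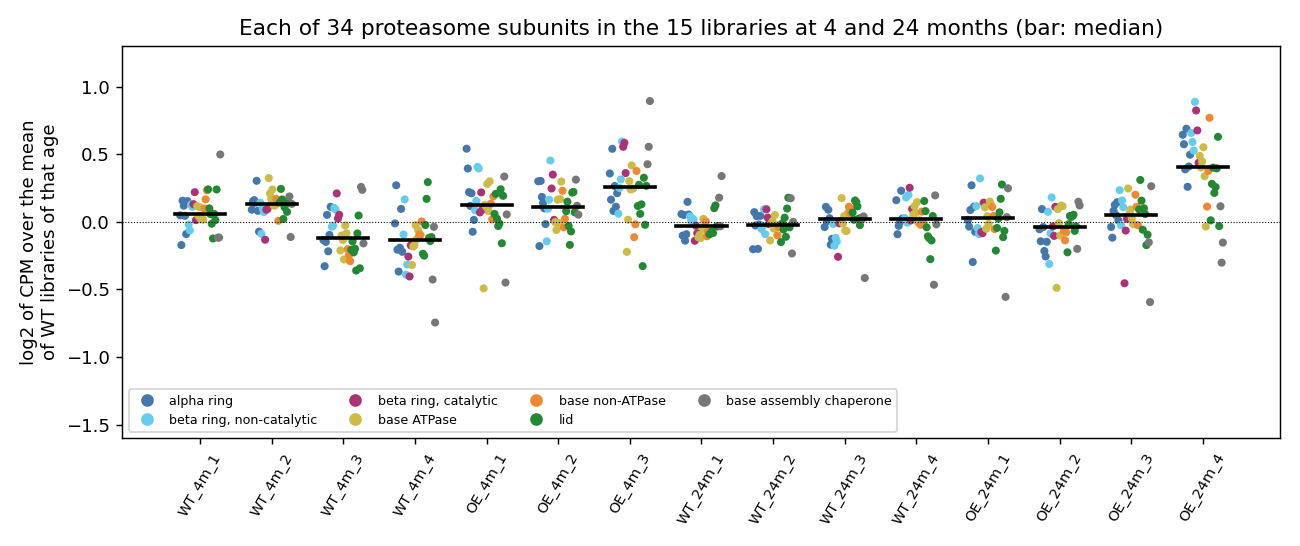
Log2 of each subunit's CPM over the mean of the WT libraries of the same age (vertical axis) in the 15 libraries at 4 and 24 months (horizontal axis), a dot per subunit coloured by role, with a bar at the median of 34. OE_24m replicate 4 has a median of 0.41, and the other 3 OE_24m libraries lie between -0.04 and 0.05.

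Psmb4 had the highest value here too (0.41, SE 0.16), with 32.2, 29.9, 28.8 and 36.6 CPM in WT_24m and 39.8, 36.2, 34.4 and 59.0 in OE_24m, which overlap. Psmd5 had the lowest (-0.18, SE 0.20). Psmb5, Psmb6 and Psmb7 stood at 0.14 (SE 0.21), 0.14 (SE 0.16) and 0.19 (SE 0.12). Psma3 and Psmb1 were higher in every OE_24m than in every WT_24m library (2.36% of all genes were), and 0 members were lower in that way (2.33%). Psmb1 stood at 80.2 to 85.5 CPM in WT_24m and at 90.2, 87.6, 97.8 and 131 in OE_24m, a small gap that OE_24m replicate 2 set. In the authors' deposited table of this comparison 0 members were called and the median was 0.070, with 28 of 33 listed members positive.

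OE_24m replicate 4 stood apart in the members as a set. It was the highest of the 8 libraries at 24 months for 26 of 34 and of all 15 libraries for 21 of 34, and its members summed to 4495 CPM against 3361 to 3568 in the other 3 OE_24m libraries. It also held the highest Nampt level, 9533 CPM, and the highest share of reads not aligned uniquely, 36.4%. Its excess over the median of its 3 group mates was uneven, 1.85-fold for Psmb5, 1.77-fold for Psmd4 and 1.69-fold for Psmb6, but 0.90-fold for Psmc6 and 0.78-fold for Psmd10. Shorter transcripts were more in excess. The Spearman rho of the excess with the length of the principal transcript was -0.47 over the 34 members and -0.50 over 8967 genes, described across genes that share 1 library and its depth. The log2 fold changes of OE over WT ran the same way, with rho of -0.22 at 4 months and -0.30 at 24 months over 8967 genes. Over the 34 members rho was -0.31 at both ages. The part of transcript length in the members' excess and in these fold changes was not tested.

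**Figure D5:**
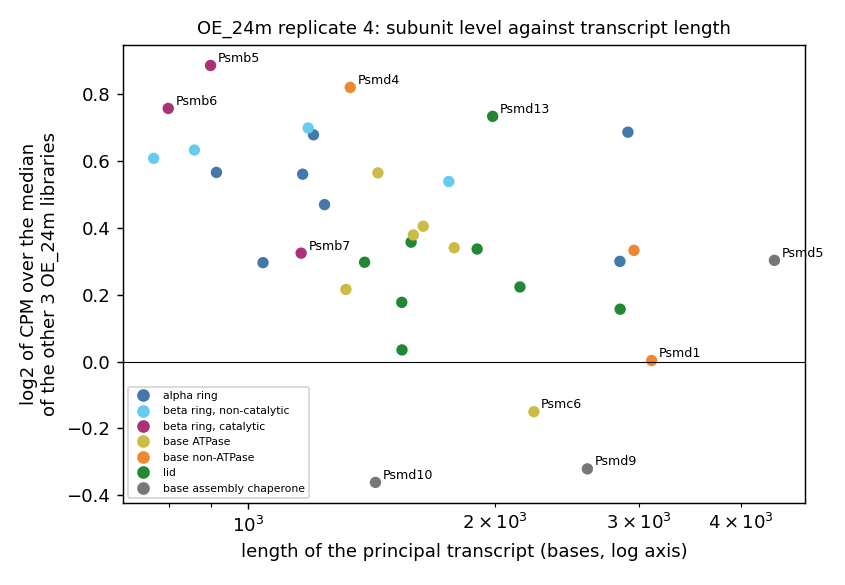
Log2 of CPM in OE_24m replicate 4 over the median of the other 3 OE_24m libraries (vertical axis) against the length of the principal transcript in bases (log axis), a dot per subunit coloured by role. Psmb5 and Psmb6, among the shortest, are the most raised with Psmd4, and Psmd10, Psmd9 and Psmc6 lie below 0.

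With age, no member passed. Between 24 and 4 months in WT, edgeR called 0 of 34 higher (0.0656% of all genes) and 0 lower (0.0875%; 0.153% in either direction), none had an unadjusted p below 0.05, and DESeq2 called 0. The median was -0.03, with 15 positive, and it was 0.08 with 31 positive under total counts. Psmd5, a chaperone of the base, had the highest value (0.40, SE 0.21, adjusted p = 0.63), from 9.77 ± 2.03 to 13.01 ± 2.49 CPM, and Psma4 the lowest (-0.15, SE 0.15). Psmb5, Psmb6 and Psmb7 stood at 0.02, 0.21 and -0.06. For 0 members did the 2 ages lie apart in either direction (2.59% and 2.81% of all genes did). The spread among old WT libraries was small, with members summing to 3420 ± 84.1 CPM beside 3454 ± 284 at 4 months. In the authors' deposited table of this comparison 0 members were called, but the median was 0.097, with 31 of 34 positive.

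Between 24 and 4 months in overexpressing muscle, edgeR again called 0 of 34 higher (0.317% of all genes) and 0 lower (0.416%; 0.733% in either direction), 1 had an unadjusted p below 0.05, and DESeq2 called 0. The median was -0.03, and -0.15 without OE_24m replicate 4, when 3 members were positive in place of 14; with total counts it was -0.06 with 9 positive. Psmd14, the deubiquitinase of the lid, had the lowest value (-0.32, SE 0.14, adjusted p = 0.37), with 57.0, 52.4 and 60.04 CPM at 4 months and 44.7, 45.7, 43.8 and 45.8 at 24 months, which do not overlap. Psmc6 was the other member lower without overlap (-0.22, SE 0.11; 5.24% of all genes), and 0 were higher in that way (5.09%). Psmc1 had the highest value (0.35, SE 0.19). Psmb5, Psmb6 and Psmb7 stood at -0.13, -0.03 and -0.03. These libraries also enter the comparisons with WT above. In the authors' deposited table of the 2 ages under overexpression, 0 members were called and the median was 0.026, with 21 of 34 positive.

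The difference between the changes with age in overexpressing and in WT muscle passed for 0 members with edgeR (0% of all genes) and for 0 with DESeq2, and 0 had an unadjusted p below 0.05 with TMM. Its median was -0.05 with 14 positive, or -0.15 without OE_24m replicate 4, and with total counts it was -0.19 with 5 positive and 2 at an unadjusted p below 0.05. Values ran from -0.52 for Psmd5 to 0.36 for Psmc1. In these 5 comparisons no gene of the lists of inducible subunits, caps, chaperones, shuttles, regulators and ligases passed the test. Cell marker lists did hold calls, all lower, counted once per gene and comparison: 4 for fibroblasts, 3 for endothelium and 1 for mature muscle. All of these calls lay between 24 and 4 months, as 0 genes were lower between overexpressing and WT muscle at either age. Their part in the values above was not tested.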

How the data were processed

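The 35 members, their roles and the related gene lists were chosen with earlier results of these data known. Per the labels' protocols, poly(A) RNA was sequenced from miRNeasy (7 months) or Trizol (4 and 24 months) extracts. The authors deposited raw counts per gene, made with cutadapt 1.4.2, TopHat2 and HTSeq on build mm10, per the submitters' processing notes; read length and strand setting are not given in the sources used here. Per the file headers, each of the authors' 5 deposited tables lists the mean normalised count (a signal per gene), the log2 fold change and its SE, a test statistic (a score) and p-values, with DESeq2 and DESeq named in the submitters' processing notes. Lines for unassigned reads (21.5 to 33.5% of the file totals at 7 months, 33.6 to 40.0% otherwise) were left out.

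The 8 libraries at 7 months and the 15 at 4 and 24 months were fitted apart with edgeR 4.0.16 (R 4.3.3), using filterByExpr with a minimum count of 10 (13140 and 9144 genes kept), TMM (factors 0.752 to 1.286 and 0.921 to 1.085), a mean per group and the robust quasi-likelihood F test. P-values were adjusted by Benjamini-Hochberg over all genes tested, and measure the spread between these animals. The test was checked on simulated counts with 200 genes changed. In mNKO 53.1% of genes passed, so that check does not bear on the choice of scaling there. Alternatives were total-count and median-of-ratios scaling, DESeq2 1.42.0, other filters, all 23 libraries in one fit, and each library left out; total counts without mitochondrially encoded genes, and pool shares, were added after seeing the data. Ratios of subunit pairs were tested by exact permutation. No libraries were identical (within-group r 0.9548 to 0.9872).

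Named were every called member, the catalytic subunits, the highest and lowest member of each comparison and, of each related list, up to 6 called genes with the smallest p or else the most expressed. Cell markers and interferon genes are given by counts, and some genes of the related lists are not reported here. Gene positions are from GENCODE M21 (GRCm38), and promoter sequences from RefSeq. Psma8 has no position here.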

Additional observations from a re-analysis of the deposited data

Results flagged for a closer look

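Of 170 values of a member's group (34 members in the 5 groups of 4 libraries), 15 held a library far from the other 3. In these, the gap to the nearest library was at least 0.839 of the group's range. For separate values chance gives about 1 in 20. Members share libraries, so 1 library can be counted many times and the 15 cannot be set against that rate. OE_24m replicate 4 accounted for 7 of them, all high: 127 CPM for Psma1 (the other 3 libraries 78.4 to 82.1), 90.2 for Psma2 (54.9 to 59.2), 145 for Psma3 (117 to 118), 162 for Psmb6 (94.1 to 96.7), 111 for Psmc4 (70.6 to 77.1), 58.5 for Psmd13 (33.6 to 36.2) and 219 for Psmd4 (122 to 127). WT_7m replicate 4 was far above its group for Psmc1 (128 CPM, against 93.1 to 95.6), Psmd2 (211, against 172 to 178) and Psmd11 (140, against 119 to 122), and WT_7m replicate 1 far below for Psmb7 (198, against 263 to 267). WT_4m replicate 4 was far below for Psmb3 (36.8, against 51.8 to 52.8) and Psmb4 (22.8, against 29.9 to 30.7). In WT_24m, replicate 3 was far above for Psmd7 (208, against 177 to 181) and replicate 4 for Psmc4 (83.7, against 72.4 to 73.6).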

How the results depend on the processing

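The mNKO counts rested on scaling. With total counts, 17 members passed, 17 higher and 0 lower (6779 and 927 of 13140 genes). The median was 0.34, beside 0.54 for all genes. Leaving mitochondrially encoded genes out of the totals gave 14 called, 14 higher and 0 lower (5794 and 1162 of 13037 genes). The median of members was then 0.23, beside 0.42 for all genes. Positive values numbered 10 of 34 with TMM, 34 with total counts and 30 without mitochondrially encoded genes. Among the 8 called members and Psmb6, those that turned positive with total counts were Psma6 0.14, Psmb6 0.48, Psmb7 0.019, Psmc6 0.026, Psmd1 0.048, Psmd3 0.14, Psmd6 0.051 and Psmd7 0.11, and of these 9, without mitochondrially encoded genes, Psma6 0.027, Psmb6 0.36, Psmd3 0.033 and Psmd7 0.00013. A filter of 10 summed counts gave 2 members higher (4228 of 16016 genes were), and no filter also gave 2 (4212 of 20111). All 23 libraries in one fit gave 2 as well (3268 of 11129). Median-of-ratios scaling gave 1 higher and 9 lower (3706 and 3332 of 13140 genes). DESeq2 gave 1 and 10 (4109 and 3504 of 20099). With each library left out in turn, 4 to 11 members passed, 3 to 10 of them lower. Of the 13205 to 13448 genes in those fits, 2667 to 3067 were lower. In WT ageing the median was 0.078 with total counts, and no alternative called a member outside mNKO. The causes of these shifts were not tested. No paired analysis was possible because the labels give the groups no shared replicate numbers. At 4 and 24 months, 2032544 to 3443762 counts per library limit what could be seen, most of all for the base chaperones and inducible subunits.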
